A study of Mus musculus with 6 samples.

Results

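The adaptor proteins and Irak kinases of Toll-like receptor signaling were followed as 10 genes, chosen by gene symbol: Myd88, Tirap, Ticam1, Ticam2, Irak1, Irak2, Irak3, Irak4, Traf6 and Tollip. They are 10 of the 24394 gene symbols in the data, and all 10 were measured. Bone marrow-derived macrophages (BMMs) of C57BL/6 mice at postnatal day 28 had been grown for 7 days in Mcsf (macrophage colony-stimulating factor) at 50 ng/ml. RNA-seq libraries came from 3 control cultures without fragments and from 3 cultures given cartilage fragments, crushed femoral head cartilage of the same strain, at 5 fragments per macrophage for 24 h. No transgene or deletion is named for either group, and the labels do not say whether the 3 samples of a group came from separate animals, so the tests measure the spread between these samples only.

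Toll-like receptors sense microbial molecules and debris of damaged tissue, and they signal through a cytoplasmic domain that recruits adaptors carrying the same domain. Myd88, helped by the bridging adaptor Tirap, gathers the kinases Irak4, Irak1 and Irak2, and these pass the signal to the ubiquitin ligase Traf6 and on to NF-κB. Ticam1 (TRIF), with the bridging adaptor Ticam2 (TRAM), serves a second branch that leads to interferon regulatory factors. Irak3, also called IRAK-M, is a family member of macrophages that restrains the kinase complex, and Tollip is an adaptor known as a restraint on the same complex. These last genes are called the brakes here, and the other 8 the activators.

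Of the 10 genes only Irak3 passed the test, and its mean level was 2.08 times that of controls in macrophages given cartilage fragments. Irak2 was 1.53 times the control mean with groups that did not overlap, but it did not pass. The other 7 activators and Tollip had ratios of means between 0.752 and 1.23. The levels below are FPKM, the fragments of a gene scaled to the length of its transcript and to the depth of the library, summed over every transcript line of the gene. The test was limma on log2(FPKM + 0.1), two-sided, with p adjusted over the 10392 genes that averaged 1 FPKM or more, and fold changes are on that scale. Among these genes 0.308% were called higher and 0.0674% lower at an adjusted p under 0.05. Of the 10 members 1 was called higher and 0 lower by limma, and at an unadjusted p under 0.05, which 9.33% of all tested genes reached, the members were Irak3 and Irak2.

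The call of Irak3 depends on how the transcript lines were summed. In each library Cufflinks listed reference transcripts, which carry a gene symbol, and transcripts it had assembled, which carry none and share only a gene identifier with the reference transcripts of their locus. A first sum used the lines that carry the symbol and no others, which is the literal reading of the rule for choosing members, and it gave Irak3 an adjusted p of 0.147. With the assembled lines joined to the symbol of their locus, the adjusted p was 0.0387. The level and log2 fold change of Irak3 were the same in both, since it had no assembled line. Its standard error was 0.157 in both, yet its own unadjusted limma p moved. It was 0.000582 with reference lines alone and 0.000141 with the joined lines. The calls over all genes moved from 15 higher (0.145%) and 4 lower (0.0386%) of 10352 to 32 higher and 7 lower. The joined sum was made the reported one after both results were known. The plan named FPKM summed per gene symbol without saying how lines that carry no symbol enter. Read literally, it is the first sum. Reference lines alone list Tollip at 0 in control replicate 1, where an assembled line at its locus held 34.5 FPKM.

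The brake Irak3 (NM_028679, chromosome 10, 120141654 to 120201537 on mm10, minus strand) stood at 29.2, 26.6 and 22.1 FPKM in control replicates 1 to 3 and at 52.9, 49.6 and 59.6 FPKM in cartilage replicates 1 to 3. Every library with cartilage fragments lay well above every control. The log2 fold change was 1.06 with a 95% interval of 0.70 to 1.42 (standard error 0.16, adjusted p = 0.0387). In estimated fragments the gene held 62.5, 55.5 and 45.3 in the control libraries and 110, 98.6 and 115 in the libraries with cartilage fragments. From their sums of 163 and 323 the ratio per library depth was 2.07, with an exact 95% interval of 1.71 to 2.52 that covers counting error only. Leaving out any 1 library moved the log2 fold change between 0.95 and 1.15 and raised the adjusted p to between 0.0818 and 0.192, past the threshold each time. Of 19 alternative settings 9 kept the call, and the adjusted p ranged from 1.8e-05 to 0.222. Irak3 is also among the genes that the study picked from these same libraries, so the call is not independent evidence of its direction. The paper also reports Irak3 as significantly higher by quantitative RT-PCR in BMMs and in peritoneal macrophages given fragments. Those measurements are not in the data used here.

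Cells of a type and the RNA in each cell cannot be told apart in bulk samples, and the marker genes bear on what the cultures held. All 7 macrophage markers were present, with sums of 29402 to 39129 FPKM in controls and 29935 to 40198 FPKM with cartilage fragments, and 1 of them, Adgre1, was called higher. The 8 chondrocyte markers summed to 1.15 to 3.28 FPKM in controls and 0.985 to 1.59 FPKM with fragments, with Matn1, Matn3, Col9a1 and Hapln1 at 0 in all 6 libraries. Lymphoid and erythroid markers were all at 0. The 7 neutrophil markers found summed to 808 to 948 FPKM against 755 to 1098 FPKM, and the 6 fibroblast markers, mostly Col1a1 and Col1a2, to 155 to 169 FPKM against 103 to 119 FPKM. Dendritic cell markers summed to at most 0.751 and 2.36 FPKM, and osteoclast markers to 45.9 to 50.0 FPKM against 60.5 to 69.7 FPKM. The rise of the osteoclast sum came from Acp5 alone, with means of 26.7 FPKM in controls and 47.3 FPKM with fragments. The means of Ctsk and Dcstamp were lower with fragments, and Calcr was at 0 in all 6 libraries. The part of these shifts in the members' values was not tested. Libraries held an estimated 699131 to 776270 fragments, far fewer than the reads per sample that the methods state, and the counting intervals rest on these estimates. The methods name male mice, whereas Xist stood at 19.8 to 23.6 FPKM and 4 Y-linked genes at 0 in all 6 libraries.

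**Figure D1:**
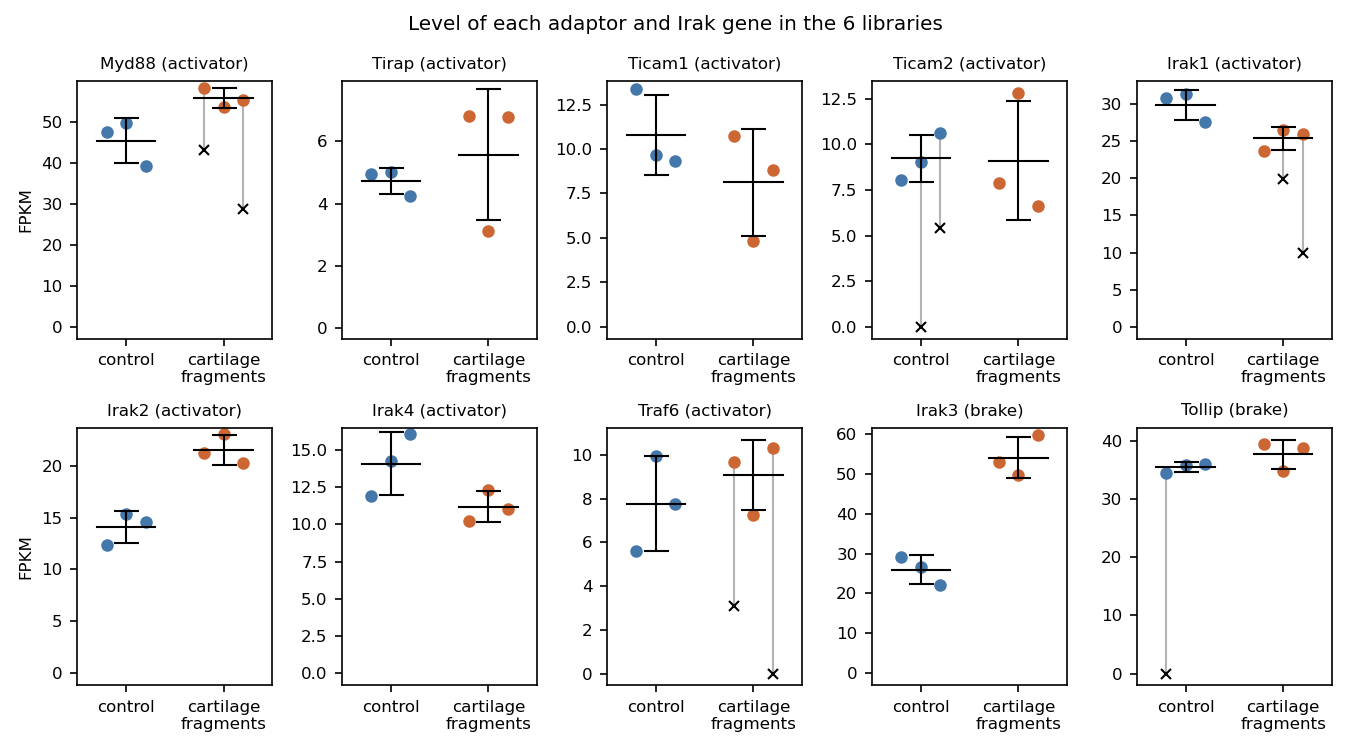
FPKM of each of the 10 genes (vertical axes, a separate scale per gene) in 3 control and 3 cartilage fragment libraries, where filled points sum all lines, crosses give the reference lines alone where these are lower, and bars show the mean ± SD. Irak3 is the gene whose 2 groups lie farthest apart, at 22.1 to 29.2 against 49.6 to 59.6 FPKM, and the crosses reach 0 for Ticam2, Traf6 and Tollip.

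Tollip (NM_023764, chromosome 7, 141881585 to 141902406, minus strand), the other brake, did not pass the test. Control replicates 1 to 3 held 34.5, 35.9 and 36.1 FPKM and cartilage replicates 1 to 3 held 39.5, 34.8 and 38.8 FPKM. The groups overlapped, and the log2 fold change was 0.08 with a 95% interval of -0.22 to 0.39 (adjusted p = 0.875). In control replicate 1 the whole of its level came from the assembled line, which spanned 5 of the 6 exons of the reference transcript. Reference lines alone would give Tollip a log2 fold change of 2.90 with an interval of -3.09 to 8.88, which rests on that single 0.

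Among the activators the kinase Irak2 (chromosome 6, 113638467 to 113695027, plus strand), which sustains signaling with Irak1, came nearest to the threshold. Control replicates 1 to 3 stood at 12.3, 15.3 and 14.5 FPKM, and cartilage replicates 1 to 3 at 21.2, 23.1 and 20.3 FPKM. All 3 stimulated libraries lay above all 3 controls. The log2 fold change was 0.61 with a 95% interval of 0.22 to 1.01, and the adjusted p was 0.262 over all genes (unadjusted p = 0.00692). Its sums of 95 and 137 fragments gave a ratio of 1.51 with an exact counting interval of 1.15 to 1.98. In all 19 alternatives the adjusted p stayed above the threshold, between 0.116 and 0.513.

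The files list 2 reference transcripts of Irak2, and they differ inside the coding sequence by the third exon, which is shown because the split between the 2 transcripts is the least steady feature of this gene. NM_172161 has 13 exons in the annotation and NM_001113553 has 12, lacking an exon of 144 bases, or 48 codons, at chr6:113665703-113665846 on the plus strand. Its sequence, from GENCODE transcripts on GRCm38 (mm10), is given in lower case.
Irak2 exon: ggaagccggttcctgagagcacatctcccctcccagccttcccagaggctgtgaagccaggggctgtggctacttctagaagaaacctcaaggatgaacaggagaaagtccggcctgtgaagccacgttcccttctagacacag
The transcript without this exon held 28.5%, 19.0% and 0% of the FPKM of Irak2 in control replicates 1 to 3 and 100%, 17.7% and 0% in cartilage replicates 1 to 3. Within the stimulated group the share thus ran over the whole possible range, whereas the sum of both transcripts stayed within 20.3 and 23.1 FPKM. No difference between the groups in the use of the exon can be read from these shares.

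**Figure D2:**
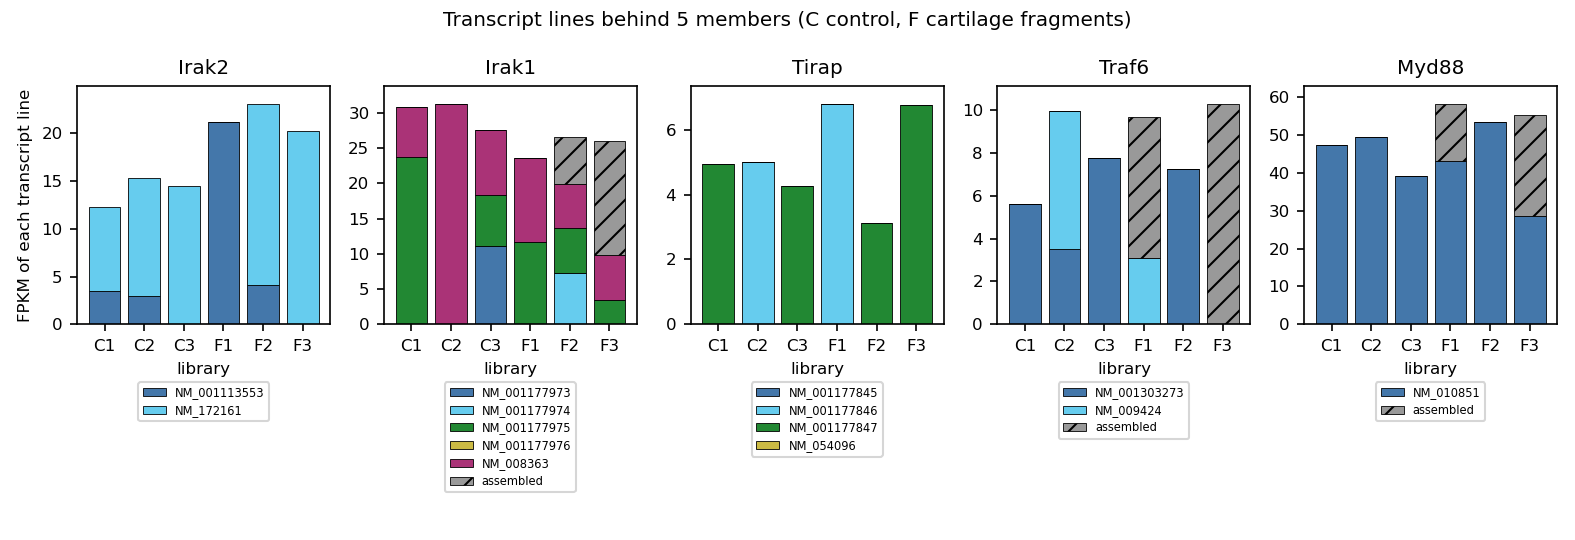
FPKM of each transcript line (stacked bars, from 0) of Irak2, Irak1, Tirap, Traf6 and Myd88 in control libraries C1 to C3 and cartilage fragment libraries F1 to F3, with hatched bars for assembled lines. The line that leads changes between replicates of 1 group for Irak2, Irak1, Tirap and Traf6, as for Irak2 in F1 against F2 and F3, whereas NM_010851 leads in all 6 libraries for Myd88.

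Irak1 (chromosome X, 74013914 to 74023921, minus strand), the kinase that Irak4 phosphorylates, was the only member whose stimulated libraries all lay below the controls. It stood at 30.8, 31.3 and 27.5 FPKM in control replicates 1 to 3 and at 23.7, 26.6 and 26.0 FPKM in cartilage replicates 1 to 3. The log2 fold change was -0.23 with a 95% interval of -0.57 to 0.10 (adjusted p = 0.677). On estimated fragments scaled to library depth it was -0.36 (interval -0.65 to -0.07, adjusted p = 0.273). Of the 5 reference transcripts of Irak1, 4 led in at least 1 library and NM_001177976 was at 0 in all 6, and an assembled line led in cartilage replicate 3. In cartilage replicates 2 and 3 an assembled line spanning 13 of 14 exons held 6.69 and 16.1 FPKM, and no control had one.

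Irak4 (NM_029926, chromosome 15, 94543660 to 94568316, plus strand), the first kinase of the complex, has a single reference transcript and no assembled line. Its levels were 11.9, 14.3 and 16.1 FPKM in control replicates 1 to 3 and 10.2, 12.3 and 11.0 FPKM in cartilage replicates 1 to 3. The groups overlapped through control replicate 1. The log2 fold change was -0.32 with a 95% interval of -0.78 to 0.13 (adjusted p = 0.664).

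Myd88 (NM_010851, chromosome 9, 119335988 to 119340040, minus strand), the adaptor shared by most Toll-like receptors and the interleukin-1 receptor family, had the highest level of the set in both groups. It stood at 47.4, 49.6 and 39.2 FPKM in control replicates 1 to 3 and at 58.3, 53.6 and 55.4 FPKM in cartilage replicates 1 to 3, without overlap. The log2 fold change was 0.30 with a 95% interval of -0.01 to 0.61 (adjusted p = 0.548). This separation depended on the unit. In cartilage replicates 1 and 3 an assembled line over 3 of the 6 exons held 15.2 and 26.7 FPKM, and a fragment on such a short line counts for more FPKM than one on the full transcript. In fragments scaled to depth the groups overlapped and the log2 fold change was 0.15 (interval -0.17 to 0.47), and with reference lines alone it was -0.16.

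Over all tested genes 9.06% had every stimulated library above every control and 6.89% the reverse. Among the members these were 3 (Irak3, Irak2 and Myd88) and 1 (Irak1) of 10.

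Traf6 (chromosome 2, 101678420 to 101701668, plus strand), the ubiquitin ligase after the Irak kinases, held 5.62, 9.94 and 7.76 FPKM in control replicates 1 to 3 and 9.69, 7.26 and 10.3 FPKM in cartilage replicates 1 to 3. Values of the groups were interleaved, and the log2 fold change was 0.24 with a 95% interval of -0.39 to 0.88 (adjusted p = 0.818). Assembled lines over 5 and 6 of the 8 exons held 6.60 FPKM in cartilage replicate 1 and the whole 10.3 FPKM in cartilage replicate 3. Without them the log2 fold change would be -2.53 (interval -6.62 to 1.56), the reverse direction.

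The bridging adaptor Tirap (chromosome 9, 35184391 to 35200291, minus strand) had the lowest level of the set. Control replicates 1 to 3 held 4.94, 5.02 and 4.25 FPKM, and cartilage replicates 1 to 3 held 6.81, 3.13 and 6.79 FPKM. Cartilage replicate 2 was the lowest library of all, below every control, and the other two stimulated libraries were the highest. The log2 fold change was 0.15 with a 95% interval of -0.66 to 0.96 (adjusted p = 0.923), and it turned negative without cartilage replicate 1 (-0.03) or cartilage replicate 3 (-0.03). In every library a single one of the 4 reference transcripts of Tirap carried its whole level.

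In the TRIF branch neither adaptor passed the test. Ticam1 (NM_174989, chromosome 17, 56269462 to 56276767, minus strand) held 13.4, 9.68 and 9.32 FPKM in control replicates 1 to 3 and 10.7, 4.80 and 8.81 FPKM in cartilage replicates 1 to 3. Its log2 fold change was -0.46 with a 95% interval of -1.21 to 0.29 (adjusted p = 0.712), on sums of 65 and 46 fragments. Leaving out 1 library moved it between -0.70, without cartilage replicate 1, and -0.13, without cartilage replicate 2. Ticam2 (NM_173394, chromosome 18, minus strand) held 8.08, 9.04 and 10.6 FPKM in control replicates 1 to 3 and 7.89, 12.8 and 6.62 FPKM in cartilage replicates 1 to 3. Its log2 fold change was -0.07 with a 95% interval of -0.72 to 0.58 (adjusted p = 0.963). For Ticam2 the assembled lines lay in controls, with the whole 9.04 FPKM of control replicate 2 and 5.23 FPKM of control replicate 3, and reference lines alone would turn its log2 fold change to 2.42 (interval -1.95 to 6.79).

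**Figure D3:**
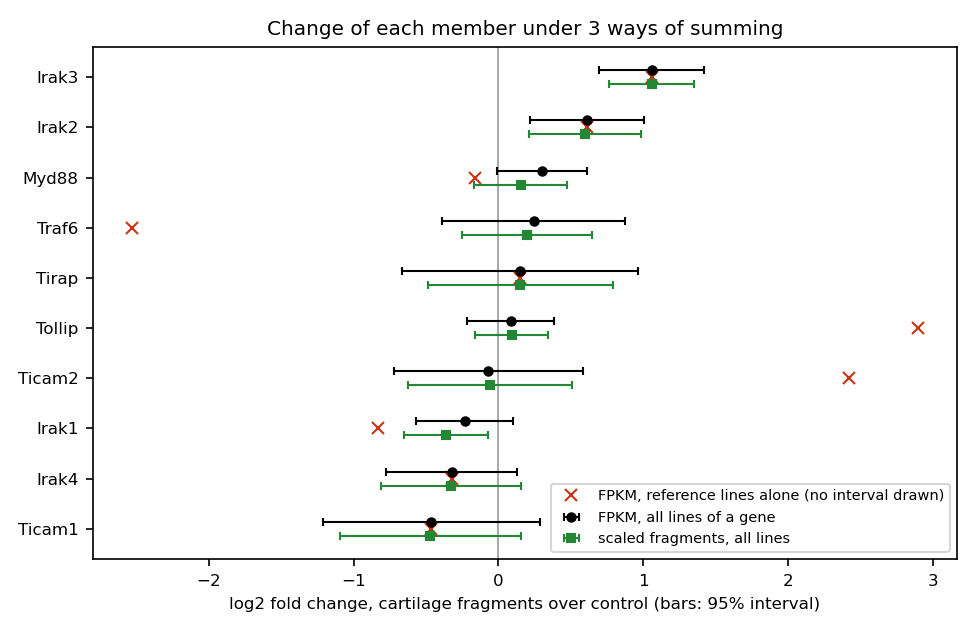
Log2 fold change of each gene with cartilage fragments over control (horizontal axis) from FPKM over all lines (circles), from fragments scaled to library depth (squares) and from reference lines alone (crosses), with 95% intervals for the first pair. For Irak3 all 3 marks lie near 1.06, whereas for Traf6, Tollip and Ticam2 the cross lies at -2.53, 2.90 and 2.42, far from the other marks.

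Neighbouring genes overlap several members, and the sources used here do not say whether the counting used the strand of the reads. Among protein-coding neighbours, exons shared 223 bases between Myd88 and Acaa1a, 70 between Irak3 and Tmbim4, 39 between Tirap and Srpr and 838 between Ticam2 and Tmed7, of which the last pair lies on the same strand. On the log2 scale, Tmbim4 differed by -0.51 (adjusted p = 0.678), Acaa1a by 0.01 (adjusted p = 0.987), Srpr by 0.12 (adjusted p = 0.804) and Tmed7 by 0.29 (adjusted p = 0.755). Ticam1, Traf6 and Tollip had no overlapping gene in the annotation.

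In controls the order of mean levels in FPKM was Myd88 (45.4 ± 5.51, SD, n = 3), Tollip (35.5 ± 0.887), Irak1 (29.9 ± 2.05), Irak3 (26.0 ± 3.56), Irak4 (14.1 ± 2.09), Irak2 (14.1 ± 1.55), Ticam1 (10.8 ± 2.24), Ticam2 (9.25 ± 1.29), Traf6 (7.77 ± 2.16) and Tirap (4.74 ± 0.420). Irak1 overlapped Irak3, and each gene from Irak4 to Ticam2 overlapped the next. With cartilage fragments Irak3 moved from the fourth place to the second, at 54.1 ± 5.10 FPKM, where it overlapped Myd88 at 55.8 ± 2.39 FPKM and lay above Tollip in every library. Irak2 at 21.5 ± 1.44 FPKM then lay above Irak4 at 11.2 ± 1.03 FPKM in every library, where it had been level with it in controls.

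Ratios within a library show the same shift without a scaling between libraries, and they are given as a description with no test. For each unit of Irak4, Irak3 stood at 2.45, 1.86 and 1.38 in control replicates 1 to 3 and at 5.16, 4.04 and 5.40 in cartilage replicates 1 to 3. Relative to Irak1 it stood at 0.866 ± 0.0731 in controls and 2.13 ± 0.230 with fragments (SD, n = 3), so that the brake went from below to above the kinase. The ratio to Myd88 was 0.572 ± 0.0399 in controls and 0.970 ± 0.0928 with fragments. With reference lines alone the ratios with fragments were 3.59 ± 2.12 to Irak1 and 1.41 ± 0.598 to Myd88, the latter above 1, while the control ratios were the same. The summed activators, at 129 to 144 FPKM in controls and 144 to 149 FPKM with fragments, stood to the summed brakes as 2.21 ± 0.0975 in controls and 1.59 ± 0.113 with fragments (2.97 ± 1.42 and 1.31 ± 0.347 with reference lines alone). The sum of the brakes moved from between 58.2 and 63.6 FPKM to between 84.4 and 98.4 FPKM, and Tollip was 34.8 to 39.5 FPKM of the latter.

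**Figure D4:**
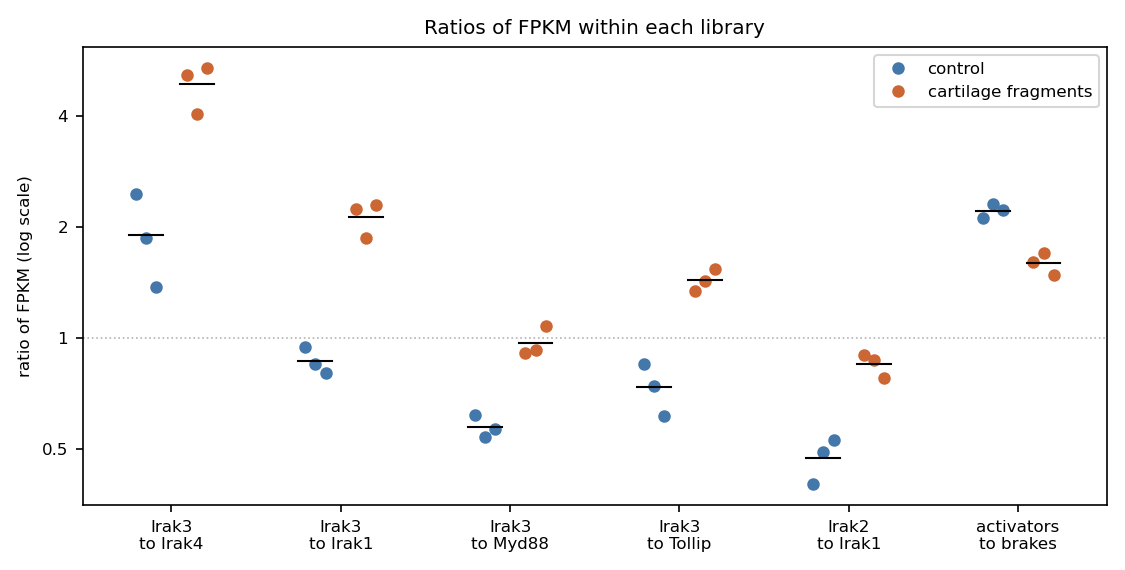
Ratio of FPKM between members within each library (vertical axis, log scale) for 3 control and 3 cartilage fragment libraries, with the group mean as a line. The groups lie apart for all 6 ratios, and Irak3 to Irak4 moves from 1.38 to 2.45 up to 4.04 to 5.40.

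The genes around the members were read from lists chosen with earlier results of these data known, and each list is set against all tested genes, whose median change was 0.00 on the log2 scale, with 50.5% of genes on the positive side. Among the 10 tested of 17 receptors that use these adaptors, 6 were on the positive side with a median of 0.27, and limma called 0 (5 at an unadjusted p under 0.05, against 9.33% of all tested genes). Those 5 went both ways, with Tlr1 and Tlr2 (0.46, adjusted p = 0.190) higher. Lower were Tlr4 at -0.44 (adjusted p = 0.520), Tlr7 at -0.63 (adjusted p = 0.151) and Tlr8 at -0.42 (adjusted p = 0.436). The receptors with the largest changes were Tlr9, a sensor of unmethylated DNA, at 1.01 on the log2 scale (adjusted p = 0.651) and 2.84 ± 1.98 against 4.69 ± 0.389 FPKM, and Tlr1, a partner of Tlr2, with 0.84 (adjusted p = 0.196) at 12.5 ± 0.458 against 23.0 ± 5.73 FPKM. Of the 5 co-receptors and chaperones all were on the positive side with a median of 0.20, and Cd14, which hands bacterial lipids to Tlr4 and Tlr2, rose from 118 ± 5.28 to 183 ± 14.8 FPKM (log2 fold change 0.63, adjusted p = 0.0366). Ly96, which binds lipopolysaccharide beside Tlr4, had the next largest value in that list, 0.30 (adjusted p = 0.794).

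Downstream of the members, 7 of 16 kinases and ubiquitin enzymes were on the positive side with a median of -0.03, and limma called 0 (1 of 16 at an unadjusted p under 0.05, a share near the 9.33% of all tested genes). Ikbke, a kinase of interferon regulatory factors, had 0.63 (adjusted p = 0.569), and Ube2v1, a partner in the ubiquitin chains that Traf6 builds, had 0.38 (adjusted p = 0.430). Of 8 transcription factors 6 were on the positive side with a median of 0.10, and 0 were called by limma or passed at an unadjusted p under 0.05. Fos had 0.40 (adjusted p = 0.644) and Nfkb1 had 0.18 (adjusted p = 0.769).

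Of the 13 tested other brakes 9 were on the positive side with a median of 0.43, and limma called 0 (5 at an unadjusted p under 0.05, against 9.33% of all tested genes). The largest values belonged to Socs1 and Sigirr, at 1.96 (adjusted p = 0.809) and 1.57 (adjusted p = 0.757), both listed at 0 in at least 1 control. With control means of 0.446 and 0.753 FPKM, both entered only through the libraries with fragments, so the filter set their side. Of 18 listed inducible products 13 were tested, and Il6, Il12b, Cxcl1, Nos2 and Ifnb1 fell below the filter of 1 FPKM. The tested ones had 12 on the positive side with a median of 2.04, and limma called 3 higher. Il1a (0.757 against 3.38 FPKM) and Cxcl10 (0.984 against 3.08 FPKM) averaged under 1 FPKM in controls. They entered only through the libraries with fragments, so the filter set their side. Saa3, an acute-phase protein, rose by 3.07 on the log2 scale (adjusted p = 0.000115), Il1b by 2.60 (adjusted p = 0.00274) and Ccl5 by 2.04 (adjusted p = 0.0286). Ccl4 had 2.82 (adjusted p = 0.747) with overlapping groups.

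**Figure D5:**
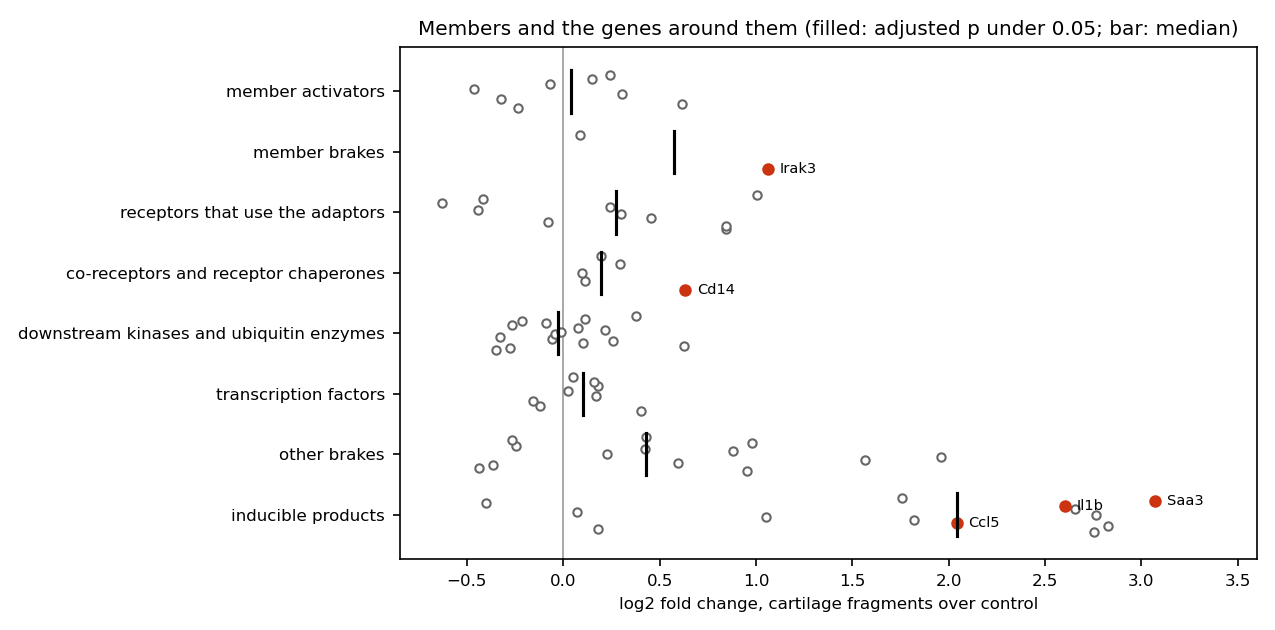
Log2 fold change with cartilage fragments over control (horizontal axis) of every tested gene in the member groups and in 6 lists around them, with red filled points for an adjusted p under 0.05 from limma and a bar at the median of each list. The 5 filled points are Irak3, Cd14, Il1b, Ccl5 and Saa3, and the inducible products have the highest median, 2.04. These products include Il1a and Cxcl10, which entered the test only through the libraries with fragments.

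On estimated fragments scaled to library depth, limma called 157 genes higher (1.51%) and 83 lower (0.799%) of 10392. Irak3 was again the only member called (log2 fold change 1.06, interval 0.76 to 1.35, adjusted p = 1.8e-05), and 0 members were called lower, with Irak1 at an unadjusted p of 0.0170. The standard error of Irak3 was 0.14 in this unit and 0.16 on FPKM. The moderation estimated more degrees of freedom here, so the smaller p of Irak3 does not mean a larger change. The genes around the members that passed in that unit but not on FPKM are named after their values were seen. Of the other brakes 3 were called higher: Tnfaip3, which removes ubiquitin from the same signaling complexes, with 0.86 (adjusted p = 0.000723), Bcl3 with 0.88 (adjusted p = 0.0104) and Tnip1 with 0.46 (adjusted p = 0.0258). The receptors gave 2 calls in each direction. Higher were Tlr2 (0.48, adjusted p = 0.000899) and, near the threshold, Tlr1 (0.77, adjusted p = 0.0478). Lower were Tlr7 and Tlr8, sensors of single-stranded RNA, at log2 fold changes of -0.63 (adjusted p = 0.000607) and -0.51 (adjusted p = 0.00135). Ikbke was called among the downstream kinases (0.71, adjusted p = 0.00159). Of the inducible products 4 were called: Saa3 and Il1b again, Tnf (1.70, adjusted p = 0.000102) and Cxcl2 (2.74, adjusted p = 0.00121), whereas Ccl5 lost its call (adjusted p = 0.0592).

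The genes most like Irak3 over the 6 libraries, among 5526 that averaged 10 FPKM or more, were Psma2, Arpc4, Gbgt1, Tnfaip3 and Cpd, with Pearson correlations of log2 values of 0.997, 0.992, 0.989, 0.985 and 0.979. Among the members the correlation with Irak3 was 0.891 for Myd88, 0.854 for Irak2, -0.724 for Irak1 and -0.855 for Irak4. The remaining members lay between -0.373 (Ticam1) and 0.577 (Tollip). These are descriptions over 6 libraries that also differ by group, so any gene with separate groups scores high in size. Tnfaip3 stood at 16.5, 17.4 and 13.5 FPKM in control replicates 1 to 3 and at 27.0, 29.2 and 31.0 FPKM in cartilage replicates 1 to 3, and its adjusted p on FPKM was 0.108.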

How the data were processed

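The authors aligned paired-end 100-base reads from stranded libraries to mm10 (TopHat, Bowtie) and estimated transcript abundance per library with Cufflinks. The deposited FPKM and the deposited coverage, a signal of mean read depth, are given per transcript, and the authors' Cuffdiff test was not repeated. FPKM were summed per gene over reference lines and the 86.3% to 87.7% of assembled lines that shared a gene identifier with 1 symbol. This joined sum departs from the literal rule (lines that carry the symbol), and it was adopted after both results were known. Fragments were estimated as coverage times an effective length over the read length, with the offset chosen in each library by the share of whole numbers, after a first version with the full length gave few. Of values of up to 8 fragments 93.7% to 94.7% lay within 0.1 of a whole number. Intervals on fragments cover counting error only.

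Genes averaging 1 FPKM or more entered limma 3.58.1 in R 4.3.3 (eBayes with trend and robust, two-sided, Benjamini-Hochberg, threshold 0.05) on log2(FPKM + 0.1), 3 against 3 libraries. The procedure was tested on simulated counts per gene, with the same dispersion for every gene and a fixed FPKM per fragment for each. They held no switch between transcript lines, so the shares that follow are for that setting alone. Of 99 genes given a log2 change of 1 there, 41.4% passed, and of 100 given a change of 2, 70% passed. Of the genes left unchanged beside them 0.05% passed. A gene that did not pass may therefore still have changed. An exact permutation test of 1 gene could not go below 0.1. Tables and figures used Python 3.11.15, scipy 1.17.1 and matplotlib 3.10.9. Starts had 1 added. The members, gene lists and tests were chosen with earlier results of these data known. Named genes are all members and the 5 genes most like Irak3. In each list they are those past the threshold and the 2 with the largest change. List genes that passed on scaled fragments alone were added with their values known. So were the receptors at an unadjusted p under 0.05, Il1a, Cxcl10 and the inducible products that were not tested. Alternatives changed the pseudocount, filter, scaling, variance moderation, weights, block, status filter, lines and unit, or left out each library.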

Additional observations from a re-analysis of the deposited data

Results flagged for a closer look

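Assembled transcript lines, which entered the tests only inside the sum of each gene, were present at 3 members in libraries with cartilage fragments and in no control. At Irak1 they held 6.69 FPKM in cartilage replicate 2 and 16.1 FPKM in cartilage replicate 3. At Myd88 they held 15.2 FPKM in cartilage replicate 1 and 26.7 FPKM in cartilage replicate 3. At Traf6 they held 6.60 FPKM in cartilage replicate 1 and 10.3 FPKM in cartilage replicate 3. The opposite was found at Ticam2 and Tollip, whose assembled lines lay in controls alone, at 9.04 and 5.23 FPKM for Ticam2 and 34.5 FPKM for Tollip. These 9 lines span 5 members and all 6 libraries, each line was assembled in its own library, and no test of a difference between the groups was made on them.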

How the results depend on the processing

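Against 32 genes higher and 7 lower, the fit without trend or robust moderation gave 13 higher, the replicate block 17 higher and 1 lower, reference lines alone 15 higher and 4 lower, and scaled fragments 157 higher and 83 lower. With 1 library left out there were 9 to 27 higher and 0 to 6 lower genes, the lowest counts without cartilage replicate 1. The 1 member called higher, Irak3, became 0 with quantile normalization (adjusted p = 0.0538), without trend or robust moderation (adjusted p = 0.222), with the replicate block (adjusted p = 0.152), with reference lines alone (adjusted p = 0.147) and without any 1 library, where the count was 0 to 0 members. For the members' fold changes, 172 of the values under the alternatives kept direction and side of the threshold, 10 (all of Irak3) kept direction but lost the call, and 8 reversed. With reference lines alone Myd88 turned to -0.16, Ticam2 to 2.42 and Traf6 to -2.53. With 1 library left out Tirap ran from -0.0336 to 0.5159, negative without cartilage replicate 1 (-0.0336) or 3 (-0.0307), and Ticam2 from -0.3424 to 0.129, positive without control replicate 3 (0.0337) or without cartilage replicate 1 (0.0032) or 3 (0.129). The cause was not tested for the settings that changed the moderation, scaling or block, and fewer samples entered where a library was left out. Deviations from the group means correlated at -0.07, 0.05 and 0.03 between samples that share a replicate number. Between samples with different numbers the correlations ran from -0.13 to 0.09. Such deviations also hold counting error, so these correlations cannot decide whether the numbers pair samples. The labels name no pairing. Another scaling moved the median of all genes by less than 0.1 on the log2 scale. The weakest member, Tirap, rested on 48 and 54 fragments per group, and the part of depth in its spread was not tested.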
